A study of Mus musculus with 9 samples.

Results

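Enzymes of the route from squalene epoxide through lanosterol to cholesterol were followed in mouse liver through 9 genes: Lss, Cyp51, Tm7sf2, Msmo1, Nsdhl, Hsd17b7, Ebp, Sc5d and Dhcr7. The members are the rows of the deposited table with these gene names, and all 9 are among the 61473 features listed there, of which 55414 carry Ensembl identifiers. All 9 passed the filter of a mean of at least 1 TPM that left 12860 features for testing. The table lists Lss as ENSMUSG00000033105, Cyp51 as ENSMUSG00000001467, Tm7sf2 as ENSMUSG00000024799, Msmo1 as ENSMUSG00000031604, Nsdhl as ENSMUSG00000031349, Hsd17b7 as ENSMUSG00000026675, Ebp as ENSMUSG00000031168, Sc5d as ENSMUSG00000032018 and Dhcr7 as ENSMUSG00000058454. Other enzymes of the same route were not analysed here. The livers came from NSG mice, a strain without mature T, B and NK cells that was the host in every group and is labelled wild type in genotype. The 9 libraries form 3 groups of 3, all after tail vein injections over 5 weeks. The first received extracellular vesicles (EVs) shed by MDA-MB-231 cells, a line from a human triple-negative breast tumour. The second received EVs of MCF-10A, a human breast epithelial line that does not form tumours, and the third received phosphate-buffered saline (PBS). The labels give neither the age and sex of the mice nor the EV dose, and they number the libraries of a group without saying that each stands for a separate mouse, so the tests measure the spread between these libraries only.

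Lanosterol is the first sterol of the pathway, and the enzymes after it strip its extra methyl groups and rearrange and reduce its double bonds until cholesterol remains. The steps take place in the membrane of the endoplasmic reticulum. Their genes are known as targets of SREBP2, the transcription factor that Scap escorts to its processing when membrane sterol is low and that Insig proteins hold back when it is high, and in liver they are known to vary with feeding, time of day and sterol supply. The title of the series places its question in cholesterol balance of the host and in a microRNA secreted by cancer cells.

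The libraries were liver by their markers: Alb, Ttr, Apoa1, Cps1, Tat and Cyp2e1 of hepatocytes summed to between 37682 and 101495 TPM in MDA-MB-231 EV livers, 43582 and 65143 TPM in MCF-10A EV livers, and 37471 and 91926 TPM in PBS livers. TPM is a transcript abundance that the authors had already divided by transcript length and scaled to a total of 1000000 per library, so that levels can be compared between genes. It keeps no read depth, so the depth behind each value is unknown. In such bulk samples fewer cells of a type and less RNA per cell cannot be told apart. Mitochondrially encoded genes took 11.7% of TPM in MDA-MB-231 EV 3 and 26.3% in PBS 1, the highest shares of these groups, and 4.96% to 12.1% in the other 7 libraries. The MCF-10A EV columns summed to 979351, 946777 and 934986 TPM, and the other 6 to the full total. For the members and for all features together, comparisons between groups below are given with and without PBS 1 and MDA-MB-231 EV 3 where those libraries change them. Other genes of the route were compared on all 9 libraries only. The correlations between genes and the order of libraries within groups were not worked out again without this pair of libraries.

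Promoter sequence is shown for 4 of the genes, because the members varied together between libraries, as described further on. Cyp51 varied most within groups and Ebp least, and Nsdhl and Sc5d formed the pair with the highest correlation. RefSeq windows of 300 bases, from 250 before to 50 after an annotated start (build GRCm38.p6, not the build named for the deposited table), were found for all 9 members, 11 windows in all since Dhcr7 has 3. Capitals mark the CCAAT box (CCAAT, bound by NF-Y) and the GC box (GGGCGG, bound by Sp1-type factors) on either strand, so that ATTGG and CCGCCC are the same boxes read on the other strand. Both factors are known partners of SREBP proteins at sterol-regulated promoters. The windows lie at chr5:4104648-4104947 on the minus strand (Cyp51), chrX:72918271-72918570 on the plus strand (Nsdhl), chr9:42264251-42264550 on the minus strand (Sc5d) and chrX:8193463-8193762 on the minus strand (Ebp), and are given 5′ to 3′ along the gene.
Cyp51: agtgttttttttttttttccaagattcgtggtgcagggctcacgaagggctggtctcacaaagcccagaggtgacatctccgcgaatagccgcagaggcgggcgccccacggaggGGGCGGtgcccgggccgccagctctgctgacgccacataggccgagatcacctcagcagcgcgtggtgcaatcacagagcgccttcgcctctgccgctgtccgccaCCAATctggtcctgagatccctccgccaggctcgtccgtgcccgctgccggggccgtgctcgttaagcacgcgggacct
Nsdhl: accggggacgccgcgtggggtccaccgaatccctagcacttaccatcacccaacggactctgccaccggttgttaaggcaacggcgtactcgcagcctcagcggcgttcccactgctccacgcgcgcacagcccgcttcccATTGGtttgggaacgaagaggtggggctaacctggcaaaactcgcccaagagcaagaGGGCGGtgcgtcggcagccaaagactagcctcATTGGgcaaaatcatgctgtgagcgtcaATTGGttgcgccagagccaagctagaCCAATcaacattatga
Sc5d: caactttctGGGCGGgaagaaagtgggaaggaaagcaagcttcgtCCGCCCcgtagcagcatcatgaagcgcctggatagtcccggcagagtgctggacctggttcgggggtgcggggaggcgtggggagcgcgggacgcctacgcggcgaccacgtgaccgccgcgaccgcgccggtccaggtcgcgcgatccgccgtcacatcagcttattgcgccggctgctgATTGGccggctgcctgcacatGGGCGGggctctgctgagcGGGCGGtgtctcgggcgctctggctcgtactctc
Ebp: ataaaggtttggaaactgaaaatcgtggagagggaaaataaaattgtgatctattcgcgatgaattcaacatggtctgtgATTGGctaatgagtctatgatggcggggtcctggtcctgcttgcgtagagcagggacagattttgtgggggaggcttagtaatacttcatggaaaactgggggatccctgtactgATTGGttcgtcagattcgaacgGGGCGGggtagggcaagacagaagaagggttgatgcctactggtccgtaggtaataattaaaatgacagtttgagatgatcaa

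All 9 members held a CCAAT box and all 9 a GC box in at least 1 window, and all 9 held both in the same window. Of all 32851 windows in the RefSeq table, 37.4% held a CCAAT box, 35.7% a GC box and 12.8% both. Counted by gene, as the members are, 41.1% of 27025 genes held a CCAAT box and 38.2% a GC box in at least 1 window. The share with both was not worked out by gene or for windows of like G and C content. The GC box was present in 68.5% of the 14253 windows with at least 55% G and C, and 9 of the 11 member windows reach that share. The CCAAT boxes of Nsdhl are 4, those of Msmo1 and Hsd17b7 are 3 each. The core of the classical sterol regulatory element, TCACNCCAC, was in none of the member windows on either strand and in 1.24% of all windows. Only this exact core was searched, so sequences that differ from it in a single letter were not counted. Its absence therefore does not show that the windows lack sterol regulatory elements. None of the 3 motifs contains another. These matches are letters in a window and not measured binding. The members are spread over 8 chromosomes in that build (Lss on 10, Cyp51 on 5, Tm7sf2 on 19, Msmo1 on 8, Hsd17b7 on 1, Sc5d on 9, Dhcr7 on 7, and Nsdhl and Ebp both on X).

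The members differed widely in level. Ebp, the sterol isomerase that moves the ring double bond, stood at the head with a mean of 294 TPM over the 9 libraries, followed by Tm7sf2 at 107, Sc5d at 66.5, Msmo1 at 54.2, Dhcr7 at 41.6, Nsdhl at 32.9, Cyp51 at 19.1, Lss at 18.7 and Hsd17b7 at 8.97 TPM. Ebp exceeded Tm7sf2 in 9 of 9 libraries, Nsdhl exceeded Cyp51 in 9 of 9, and Lss exceeded Hsd17b7 in 9 of 9. Dhcr7 exceeded Nsdhl in 8 of 9. The neighbours Tm7sf2 and Sc5d (higher in 7 of 9 libraries), Sc5d and Msmo1 (5 of 9), Msmo1 and Dhcr7 (8 of 9) and Cyp51 and Lss (4 of 9) differed by less than the spread of their log2 ratio over libraries. Among all tested features the mean levels ran from the 56.6th percentile for Hsd17b7 to the 97.0th for Ebp.

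**Figure D1:**
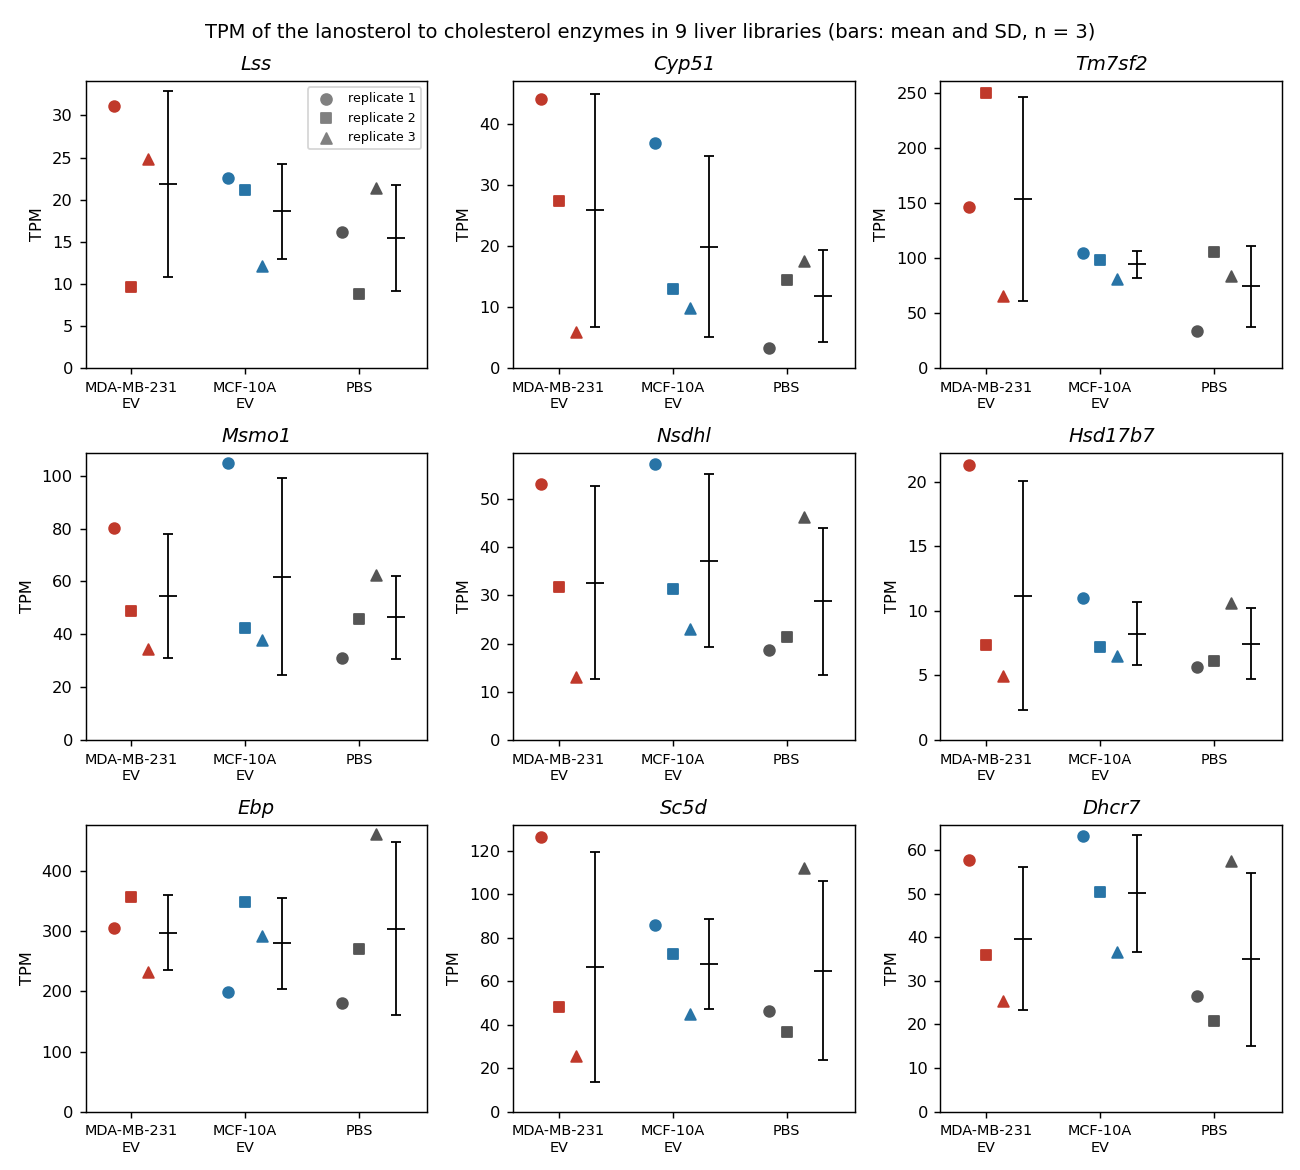
TPM (vertical axis, from 0) of each of the 9 genes in the 3 libraries of each group, with the marker shape giving the replicate number and the bar the mean and SD of 3 libraries. In every panel the 3 groups overlap; Cyp51 spans 3.28 to 44.05 TPM and Ebp 180 to 462 TPM.

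Lss, lanosterol synthase, folds squalene epoxide into lanosterol. It was at 31.1, 9.68 and 24.8 TPM in MDA-MB-231 EV 1 to 3, at 22.6, 21.1 and 12.2 TPM in MCF-10A EV 1 to 3 and at 16.2, 8.85 and 21.4 TPM in PBS 1 to 3. Each group held a library near 10 TPM and a library above 20 TPM, and the ranges overlap. Cyp51, the cytochrome P450 that removes the first methyl group of lanosterol, was at 44.1, 27.4 and 5.96 TPM in MDA-MB-231 EV livers, at 36.8, 12.9 and 9.84 TPM in MCF-10A EV livers and at 3.28, 14.5 and 17.5 TPM in PBS livers. Its annotation overlaps that of Akap9 on the opposite strand, and whether counting used strand is not given. Its highest value was in MDA-MB-231 EV 1 and its lowest in PBS 1, a 13.4-fold range that was the widest of the members. Its within-group SD of 1.18 on the log2(TPM + 1) scale lay at the 89.4th percentile of all tested features. Tm7sf2, a sterol reductase that acts on the product of Cyp51, was at 146, 249.7 and 65.5 TPM in MDA-MB-231 EV livers, at 104.5, 98.0 and 80.8 TPM in MCF-10A EV livers and at 33.9, 105 and 83.7 TPM in PBS livers. Its high library was MDA-MB-231 EV 2, where no other member but Ebp had the top value of that group, and its annotation overlaps that of Vps51.

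Msmo1, Nsdhl and Hsd17b7 act in turn to remove the remaining pair of methyl groups: Msmo1 oxidises them, Nsdhl splits off the carboxyl group that results, and Hsd17b7 reduces the ketone that is left. Msmo1 was at 80.3, 49.0 and 34.3 TPM in the MDA-MB-231 EV libraries, at 105, 42.5 and 37.9 TPM in the MCF-10A EV libraries and at 30.9, 46.0 and 62.5 TPM in the PBS libraries. Nsdhl was at 53.1, 31.7 and 13.1 TPM in the MDA-MB-231 EV libraries, at 57.4, 31.3 and 23.0 TPM in the MCF-10A EV libraries and at 18.6, 21.4 and 46.3 TPM in the PBS libraries. For both genes the first library of each EV group and the third PBS library were high, and the groups overlap. Hsd17b7, the member with the lowest level, was at 21.3, 7.34 and 4.94 TPM in MDA-MB-231 EV livers, at 11.03, 7.23 and 6.49 TPM in MCF-10A EV livers and at 5.63, 6.15 and 10.6 TPM in PBS livers. MDA-MB-231 EV 1 stood above all other libraries, and the other 2 values of its group lie inside or below the range of PBS.

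Ebp, Sc5d and Dhcr7 complete the ring system: Ebp shifts a ring double bond, Sc5d introduces a further one that stays in cholesterol, and Dhcr7 reduces the one that Ebp placed, a step whose loss causes Smith-Lemli-Opitz syndrome in humans. Ebp was at 304, 356 and 232 TPM in MDA-MB-231 EV livers, at 198, 348 and 292 TPM in MCF-10A EV livers and at 180.4, 271 and 462 TPM in PBS livers. Its within-group SD of 0.49 (log2 scale) was the lowest of the members, at the 29.8th percentile of all tested features. It was high in PBS 3 and low in PBS 1 and MCF-10A EV 1. Sc5d was at 126, 48.1 and 25.6 TPM in MDA-MB-231 EV livers, at 85.7, 72.7 and 45.1 TPM in MCF-10A EV livers and at 46.2, 36.5 and 112 TPM in PBS livers. Dhcr7 was at 57.7, 35.9 and 25.5 TPM in MDA-MB-231 EV livers, at 63.2, 50.4 and 36.5 TPM in MCF-10A EV livers and at 26.6, 20.7 and 57.6 TPM in PBS livers. Sc5d and Dhcr7 were high in MDA-MB-231 EV 1, MCF-10A EV 1 and PBS 3, with overlapping groups.

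Livers that received cancer vesicles were first set against PBS livers, to ask whether these enzymes differed in level. None of the 9 members passed the threshold, and for none were the 2 groups apart. The largest differences were those of Tm7sf2, at 154 ± 92.4 TPM in MDA-MB-231 EV livers and 74.2 ± 36.5 TPM in PBS livers (SD, n = 3 each), and of Cyp51, at 25.8 ± 19.1 TPM in MDA-MB-231 EV livers and 11.8 ± 7.50 TPM in PBS livers. Their log2 changes on the log2(TPM + 1) scale were 0.99 ± 0.57 (SE; 95% interval -0.27 to 2.25) and 0.95 ± 0.80 (-0.82 to 2.72). Lss gave 0.41 ± 0.51, Hsd17b7 0.33 ± 0.51, Dhcr7 0.24 ± 0.48, Msmo1 0.20 ± 0.51, Nsdhl 0.09 ± 0.58, Ebp 0.05 ± 0.45 and Sc5d -0.09 ± 0.62. Every member had a limma adjusted p of 1, with unadjusted values between 0.110 and 0.911. In this comparison 0% of all 12860 tested features were called, 1.55% had an unadjusted p under 0.05 and 6.03% had groups that did not overlap. Without PBS 1, 24 features were called, and without PBS 1 and MDA-MB-231 EV 3 there were 28, with no member among them.

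In this first comparison 8 of the 9 members had a log2 change above 0, beside 69.7% of all tested features, and 5 of 9 were above the median of all features. The members had a median log2 change of 0.24 and all tested features one of 0.21. Without MDA-MB-231 EV 1 the median of the members was -0.07 and 2 of 9 were above that of all features, and without PBS 3 it was 0.59 and 9 of 9 were. Without PBS 1 the members' median was 0.11 and 3 of 9 were above that of all features, which was 0.28. Without MDA-MB-231 EV 3 it was 0.51 and 9 of 9 were above that of all features, which was 0.12. With quantile normalization 4 of the 8 members above 0 turned below it. With both PBS 1 and MDA-MB-231 EV 3 left out, an alternative added once the values were known, 8 of 9 members were above the median of all features and again none was called.

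**Figure D2:**
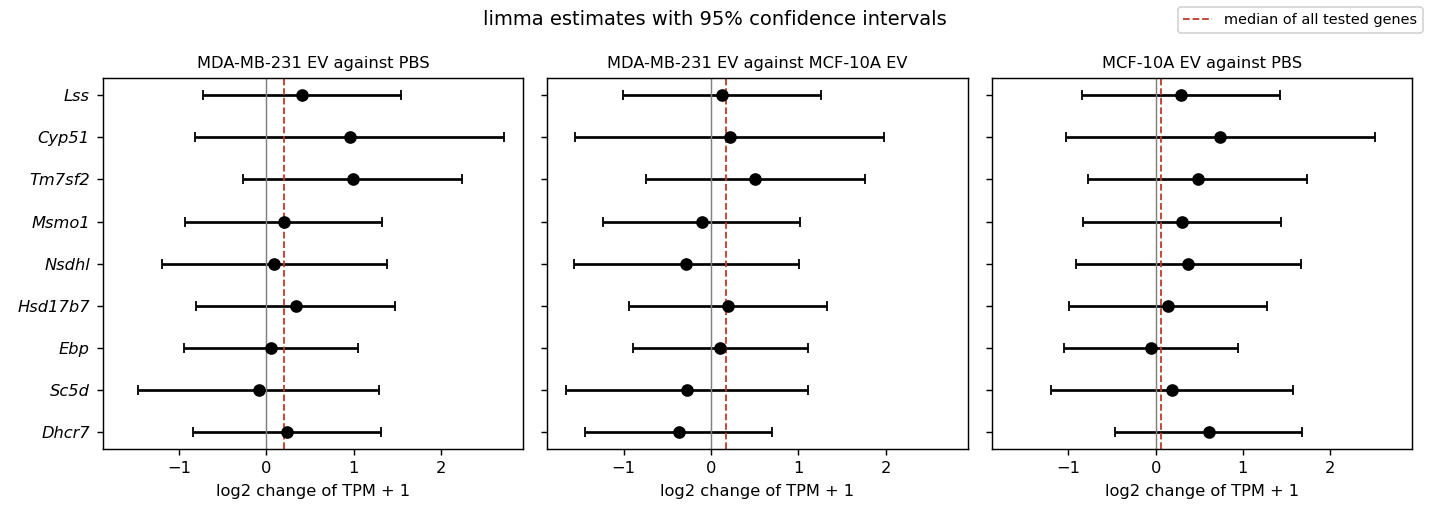
Log2 change of TPM + 1 (horizontal axis) of each member in the 3 comparisons, as limma estimates with 95% confidence intervals; the dashed line is the median of all tested genes. All 27 intervals include 0, and 5, 3 and 8 of the 9 points lie above the dashed line in the panels from left to right.

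Cancer vesicles were next set against those of the line that does not form tumours. Again 0 of 9 members were called and for none were the groups apart. Tm7sf2 had the largest positive value, with means of 154 ± 92.4 TPM in MDA-MB-231 EV livers and 94.4 ± 12.2 TPM in MCF-10A EV livers (SD, n = 3 each; log2 change 0.51 ± 0.57, SE; 95% interval -0.75 to 1.76). Dhcr7 had the largest negative one, with 39.7 ± 16.5 TPM in MDA-MB-231 EV livers and 50.04 ± 13.4 TPM in MCF-10A EV livers (-0.37 ± 0.48; -1.45 to 0.70). The others were Nsdhl at -0.28 ± 0.58, Sc5d at -0.28 ± 0.62, Msmo1 at -0.11 ± 0.51, Ebp at 0.11 ± 0.45, Lss at 0.12 ± 0.51, Hsd17b7 at 0.19 ± 0.51 and Cyp51 at 0.21 ± 0.80. The limma adjusted p was 1 for all 9. Over all features 0.218% were called (28 of 12860), 3.83% had an unadjusted p under 0.05 and 6.53% had groups apart. Deviations of same-numbered libraries of these 2 groups correlated positively, and with the replicate number as a block in these 6 libraries 12 features were called and still no member. The members' median was 0.11 and that of all features 0.17, with 3 of 9 members above the median of all features and 5 of 9 above 0, beside 65% of all features. With quantile normalization 4 of these 5 turned below 0. Without MDA-MB-231 EV 1 the members' median was -0.36 and 2 of 9 lay above the median of all features. Without MDA-MB-231 EV 3 the members' median was 0.25 and 7 of 9 lay above that of all features, which was 0.07.

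Vesicles of the non-cancer line were last set against PBS. None was called and none had groups apart, beside 0.194% of all features called (25 of 12860), 3.2% with an unadjusted p under 0.05 and 7.69% with groups apart. Cyp51 was at 19.9 ± 14.8 TPM in MCF-10A EV livers and 11.8 ± 7.50 TPM in PBS livers (SD, n = 3 each), a log2 change of 0.74 ± 0.80 (SE; 95% interval -1.03 to 2.51). Dhcr7 was at 50.04 ± 13.4 TPM in MCF-10A EV livers and 34.9 ± 19.8 TPM in PBS livers (0.61 ± 0.48; -0.47 to 1.68). Tm7sf2 gave 0.48 ± 0.57, Nsdhl 0.37 ± 0.58, Msmo1 0.30 ± 0.51, Lss 0.29 ± 0.51, Sc5d 0.19 ± 0.62, Hsd17b7 0.14 ± 0.51 and Ebp -0.05 ± 0.45, all with a limma adjusted p of 1. The members' median was 0.30 and that of all features 0.07, and 8 of 9 members lay above the median of all features. Above 0 lay 8 of 9 members and 56.8% of all features. Without PBS 1 the members' median was 0.05 and 3 of 9 lay above the median of all features, which was 0.10, and without PBS 3 it was 0.64 and all 9 did. With libraries weighted by their fit, the members' median was -0.44. The PBS libraries serve both EV comparisons, and the 3 comparisons are therefore not independent of each other.

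Within each group most members were highest in the same library and lowest in the same library. In the MDA-MB-231 EV group 7 of 9 members were highest in library 1 and 8 of 9 were lowest in library 3. In the MCF-10A EV group 8 of 9 were highest in library 1, with Ebp as the exception, and the same 8 were lowest in library 3. In the PBS group 8 of 9 were highest in library 3, with Tm7sf2 as the exception, and 6 of 9 were lowest in library 1. The corresponding top library was the top one for 42.2%, 60.9% and 19.8% of all tested features in MDA-MB-231 EV 1, MCF-10A EV 1 and PBS 3. The low library was the lowest for 30.7%, 28.7% and 36.2% of all tested features in MDA-MB-231 EV 3, MCF-10A EV 3 and PBS 1. The 9 genes vary together, so these counts are not 9 separate observations.

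Other values moved with these libraries. The summed hepatocyte markers were 101495, 70234 and 37682 TPM in MDA-MB-231 EV 1 to 3, 45697, 65143 and 43582 TPM in MCF-10A EV 1 to 3, and 37471, 58849 and 91926 TPM in PBS 1 to 3. The sums had the same order as most members in the MDA-MB-231 EV group, were lowest in PBS 1 and highest in PBS 3, but were highest in MCF-10A EV 2. In the MDA-MB-231 EV group Alb, Cps1 and Cyp2e1 had this order, and Ttr was highest in library 2. Apoa1 (18436, 18517 and 20515 TPM in libraries 1 to 3) and Tat (615, 419 and 816 TPM) were highest in library 3. In the MCF-10A EV group Cps1, Tat and Cyp2e1 were highest in library 1, as most members were, and Alb, Ttr and Apoa1 in library 2. In the PBS group Alb, Ttr, Apoa1 and Cps1 were highest in PBS 3, and Tat and Cyp2e1 in PBS 2. None of the 6 markers was at 0 in any group. The mitochondrial share was 6.50%, 4.96% and 11.7% in MDA-MB-231 EV 1 to 3, 5.63%, 7.31% and 9.36% in MCF-10A EV 1 to 3, and 26.3%, 12.1% and 8.10% in PBS 1 to 3. It was highest where most members were lowest in each of the 3 groups, and the part of either measure in the members' levels was not tested. Adipocyte markers (3 genes) summed to 0 to 0.94 TPM in MDA-MB-231 EV livers, 1.15 to 2.33 TPM in MCF-10A EV livers and 0.25 to 307 TPM in PBS livers, where the high value was PBS 2 alone. Pancreatic acinar markers (3 genes) summed to at most 54.7 TPM in any library, with Cpa1 and Prss2 both at 0 in 4 of 9. This highest sum was Cela1 alone, in MDA-MB-231 EV 2. Cpa1 and Prss2 were highest in MDA-MB-231 EV 3, at 1.69 and 8.3 TPM, and at most at 0.22 and 0.66 TPM elsewhere. Stellate cell markers (Lrat, Reln and Dcn) summed to 54.4 to 222 TPM in MDA-MB-231 EV livers, 37.8 to 78.4 TPM in MCF-10A EV livers and 47.5 to 92.0 TPM in PBS livers. Endothelial markers (Stab2, Kdr and Pecam1) summed to 28.0 to 73.7 TPM in MDA-MB-231 EV livers, 25.7 to 51.7 TPM in MCF-10A EV livers and 26.2 to 67.4 TPM in PBS livers. The highest sum of both lists was in MDA-MB-231 EV 1, where 7 of 9 members were highest in their group. Lrat, Reln, Dcn and Kdr were each higher there than in any other library. The other endothelial markers were not: Stab2 was at 41.8 TPM there and highest in MDA-MB-231 EV 3 (51.0 TPM). Pecam1 was at 12.5 TPM there and highest in MCF-10A EV 1 (34.5 TPM). Kupffer cell markers (4 genes) summed to 319 to 387 TPM in MDA-MB-231 EV livers, 152 to 454 TPM in MCF-10A EV livers and 166 to 341 TPM in PBS livers. The 454 TPM was in MCF-10A EV 1 and was mostly Cd5l, at 422 TPM. Cd5l and Timd4 (12.55 TPM) were higher there than in any other library, while Clec4f, at 0.61 TPM, was lower than in any other. The part of these cell types in the members' levels was not tested.

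**Figure D3:**
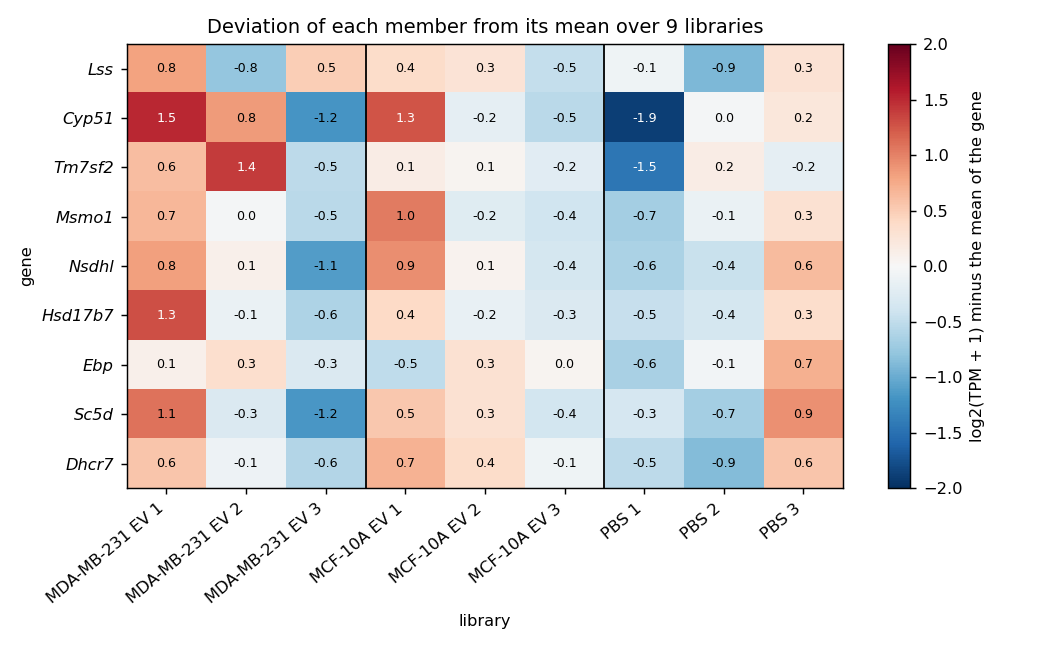
Deviation of log2(TPM + 1) of each member (rows) from its own mean over the 9 libraries (columns, with lines between the groups); red is above the mean of the gene and blue below it. Columns MDA-MB-231 EV 1, MCF-10A EV 1 and PBS 3 are mostly red and MDA-MB-231 EV 3 and PBS 1 mostly blue, while Lss, Tm7sf2 and Ebp break the columns.

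Between members, 34 of 36 pairs correlated positively over the 9 libraries, with a median Pearson r of 0.54 and a median Spearman rho of 0.63. The median over all 82683370 pairs of tested features was 0.14, with 59.5% above 0, and 22.6% of all pairs exceeded the median of the members. By exact permutation of the pairings, two-sided and Benjamini-Hochberg adjusted over the 36 pairs, 14 pairs passed 0.05 by Pearson's r and 12 by Spearman's rho. These permutations, and those within groups, treat the libraries as exchangeable. They take no account of the positively correlated deviations of same-numbered MDA-MB-231 EV and MCF-10A EV libraries. On deviations from the group means, which removes any difference between treatments, the median r was 0.60 and 9 pairs passed by exact permutation within groups. On the same deviations the median over all pairs of tested features was 0.16, and 23.0% of all pairs exceeded the median of the members. How many of all pairs would pass these permutation tests was not determined, so the counts of passing pairs are not shown to be particular to the members. With the 2 libraries farthest from the median of the first gene of each pair left out, all 36 were above 0, with a median of 0.66.

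Nsdhl and Sc5d gave the highest value, r = 0.93 and rho = 0.88 (exact permutation p = 0.000694 and 0.00308, adjusted 0.00702 and 0.0101), and r = 0.92 without the 2 farthest libraries. Msmo1 and Nsdhl, neighbours in the removal of the methyl groups, gave r = 0.91 and rho = 0.93 (exact permutation p = 0.000458 and 0.000750, adjusted 0.00702 and 0.00787), and r = 0.86 without the 2 farthest. Nsdhl and Hsd17b7, the next step, gave r = 0.87 and rho = 0.98 (exact permutation p = 0.00078 and 5e-05, adjusted 0.00702 and 0.00179), and r = 0.90 without the 2 farthest. Cyp51 and Msmo1 gave r = 0.89 and rho = 0.97 (exact permutation p = 0.00125 and 0.000165, adjusted 0.00897 and 0.00298) and 0.86 in the reduced set. Hsd17b7 and Sc5d gave r = 0.89 and rho = 0.92 (exact permutation p = 0.000165 and 0.00131, adjusted 0.00595 and 0.00787), and r = 0.93 without the 2 farthest. Lower values of r that still passed were 0.86 for Cyp51 and Nsdhl, 0.83 for Msmo1 and Hsd17b7, 0.80 for Cyp51 and Hsd17b7 and 0.75 for Msmo1 and Sc5d. Cyp51 and Sc5d gave r = 0.67 and rho = 0.73 (exact permutation p = 0.0516 and 0.0311, adjusted 0.116 and 0.0700) and did not pass, and r was 0.62 without the 2 farthest.

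The 14 pairs that passed by Pearson's r left out Lss and Ebp altogether and held Tm7sf2 in 1 pair, with Cyp51. Cyp51 and Tm7sf2 gave r = 0.83 and rho = 0.85 (exact permutation p = 0.00529 and 0.00607, adjusted 0.0212 and 0.0182), with r = 0.66 when PBS 1 and MDA-MB-231 EV 1 were left out. Nsdhl, Hsd17b7 and Msmo1 were in 5 passing pairs each, and Cyp51, Sc5d and Dhcr7 in 4 each. The mean r of Lss with the other 8 members was 0.29 and that of Ebp 0.30, while that of Nsdhl was 0.71. Lss and Tm7sf2 gave the lowest pairwise value, r = -0.19 and rho = -0.13 (exact permutation p = 0.627 and 0.744, adjusted 0.684 and 0.765), which became 0.54 without PBS 2 and MDA-MB-231 EV 2. A pair that did not pass is not shown to be unrelated at 9 libraries.

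**Figure D4:**
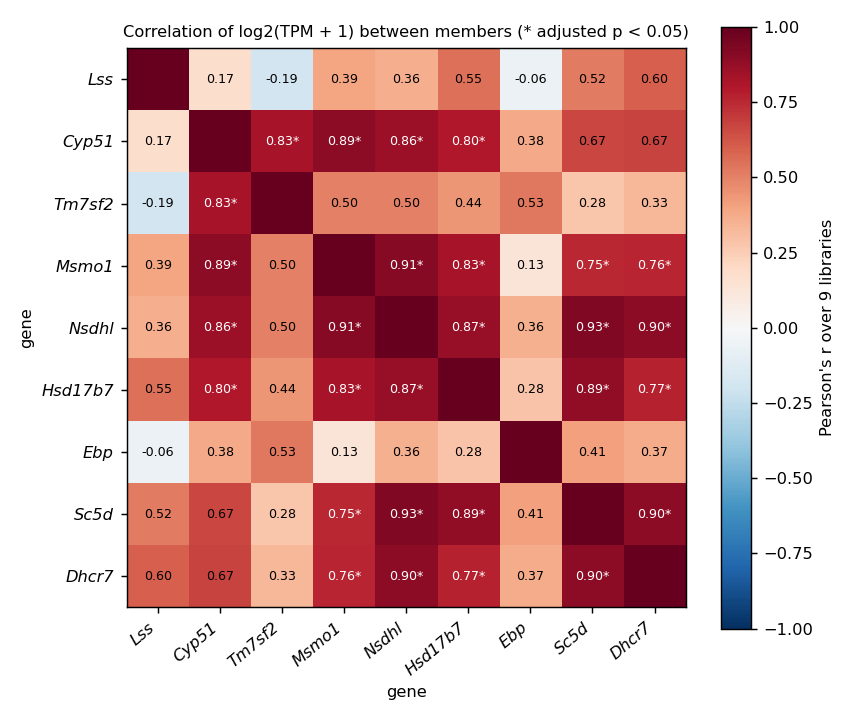
Pearson's r of log2(TPM + 1) between each pair of members over 9 libraries, with an asterisk where the Benjamini-Hochberg adjusted exact permutation p was under 0.05. Cyp51, Msmo1, Nsdhl, Hsd17b7, Sc5d and Dhcr7 form the dark area, with up to 0.93 for Nsdhl and Sc5d, and Lss and Ebp are paler, down to -0.19 for Lss and Tm7sf2.

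The other genes of the route were read from lists. Of 8 upstream enzymes of the mevalonate and squalene steps, 5 regulators and 6 redox partners and scaffold genes, all were tested and 0 were called in any of the 3 comparisons. Por, which passes electrons to Cyp51 and the other cytochromes P450, was at 407, 435 and 257 TPM in MDA-MB-231 EV livers and at 127, 264 and 120.4 TPM in PBS livers, with 1 PBS library inside the range of the EV livers. Its log2 change was 1.16 ± 0.44 (SE), and it was the 1 gene of these 19 with an unadjusted limma p under 0.05 in any of the 3 comparisons (0.0242, adjusted 1). Against MCF-10A EV livers, at 222, 145 and 191 TPM, the groups did not overlap (0.96 ± 0.44), as for 6.53% of all features. Groups were also apart in MDA-MB-231 EV against PBS, as for 6.03% of all features, for 2 listed genes. Pmvk, a kinase of the mevalonate steps, was at 86.6, 73.4 and 45.9 TPM in MDA-MB-231 EV livers and at 18.1, 45.3 and 38.1 TPM in PBS livers (1.05 ± 0.48). Scap was at 32.7, 21.5 and 30.2 TPM in MDA-MB-231 EV livers and at 18.8, 14.4 and 14.2 TPM in PBS livers (0.78 ± 0.36). Neither was called. Fdft1, which makes squalene, averaged 65.5 ± 41.4 TPM in MDA-MB-231 EV livers and 28.1 ± 14.4 TPM in PBS livers (SD, n = 3 each; log2 change 1.16 ± 0.59), and Sqle, which makes the epoxide that Lss folds, averaged 19.6 ± 2.57 and 18.5 ± 9.46 TPM in these livers (0.18 ± 0.55). Erg28, a scaffold that tethers the enzymes of methyl removal, averaged 64.8 ± 41.8 TPM in MDA-MB-231 EV livers and 41.0 ± 27.8 TPM in PBS livers (0.75 ± 0.82). In PBS 1 to 3 Fdft1 was at 12.4, 31.35 and 40.7 TPM and Erg28 at 8.96, 55.6 and 58.4 TPM. The listed genes were not fitted again without PBS 1 or MDA-MB-231 EV 3, so how far these differences rest on those libraries was not tested. Median log2 changes in this comparison were 0.28 for the upstream enzymes, 0.20 for the regulators and 0.35 for the partners, beside 0.21 for all features. There 6 of 6 partners, 5 of 5 regulators and 6 of 8 upstream enzymes were above 0, beside 69.7% of all features, and 4, 2 and 5 of them were above the median of all features. In MCF-10A EV against PBS 6, 4 and 6 of them were above 0, beside 56.8% of all features, and between the EV groups 3 of each list, beside 65%.

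Across libraries, the likeness of each of 12791 other features with a symbol to the members was taken as Pearson's r between its log2(TPM + 1) and the mean standardised level of the 9 genes. It is a description over 9 libraries that share their normalisation. The median was 0.08, and 5% of features were above 0.80. Cyb5b, a cytochrome b5 of the outer mitochondrial membrane, gave 0.88 (rank 136), Fdft1 0.87 (rank 187) and Erg28 0.86 (rank 217). Erg28 was at 103, 71.4 and 20.0 TPM in MDA-MB-231 EV 1 to 3, at 90.7, 51.7 and 24.5 TPM in MCF-10A EV 1 to 3, and at 8.96, 55.6 and 58.4 TPM in PBS 1 to 3, so the libraries high in most members were high in Erg28. Sqle gave 0.74, Insig1 0.68, Srebf2, the gene of SREBP2 itself, 0.51, Idi1 0.43 and Srebf1 0.40. Hmgcs1, which makes the HMG-CoA that enters the mevalonate pathway, gave -0.33, the lowest of the 19 listed genes. It was at 96.5, 54.98 and 222 TPM in MDA-MB-231 EV 1 to 3, at 180.0, 201 and 189 TPM in MCF-10A EV 1 to 3, and at 419, 84.2 and 261 TPM in PBS 1 to 3, highest within their groups in MDA-MB-231 EV 3 and PBS 1, where most members were lowest. PBS 3, where 8 of 9 members were highest in their group, had the next highest level after PBS 1. Mvd gave -0.09.

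The 10 features most like the members were Copz1 (r = 0.98), a subunit of the COPI coat of Golgi vesicles, Rdh11 (0.95), a retinol dehydrogenase, Serpind1 (0.95), the heparin cofactor of plasma, Lgals9 (0.95), a galectin, Pcyox1 (0.95), an oxidase of prenylcysteine, Erlin1 (0.95), a lipid raft protein of the endoplasmic reticulum, Tmem38b, Mrpl21, Cpped1 and Rbmx (0.94 each). None of the 19 listed pathway genes was among them. Copz1 was at 98.0, 64.3 and 43.4 TPM in MDA-MB-231 EV 1 to 3, at 91.8, 62.5 and 49.2 TPM in MCF-10A EV 1 to 3 and at 45.2, 50.3 and 77.1 TPM in PBS 1 to 3, which is the order of most members in each group.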

How the data were processed

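RNA-seq libraries of 9 liver samples (TruSeq RNA kit, per the labels' protocols) were read from one table of TPM per library, deposited by the authors. HISAT2, StringTie and RSEM with GRCm39 are named in the submitters' processing notes, without versions or order; strand handling and annotation are not given in the sources used here. TPM were used as deposited. The 6059 assembled loci, at 0 in all MCF-10A EV libraries, were left out, and a feature was tested where its mean over the 9 libraries reached 1 TPM. All libraries and group means entered 1 limma fit (version 3.58.1, R 4.3.3) of log2(TPM + 1), with a trended prior variance, two-sided tests and Benjamini-Hochberg adjustment over all 12860 features, called under 0.05. The pseudocount understates changes of low genes. The fit was tested on simulated data.

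The members and lists were chosen with earlier results of these data known. Named are all members, the fixed upstream, regulator and partner genes, and the 10 features most like the members. Deviations of same-numbered libraries of MDA-MB-231 EV and MCF-10A EV correlated positively (0.34, 0.11 and 0.44 over tested features), which comes from the data and not from the labels. Those with PBS were of both signs or negative, and whether equal numbers mark a pairing was not tested. Alternatives changed the pseudocount, the filter, the normalisation, weights, block and libraries used.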

Additional observations from a re-analysis of the deposited data

How the results depend on the processing

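No member was called under any alternative, in 468 refits over 27 member results; the lowest limma adjusted p was 0.386, for Sc5d in MCF-10A EV against PBS with array weights. Signs were not stable: 65 of these refits, in 21 of the 27 results, had the opposite sign to the reported value, and the cause was not tested. In MDA-MB-231 EV against PBS, quantile normalization, which moved the median of all features to 0.04, gave log2 changes of Msmo1 -0.059, Nsdhl -0.18, Ebp -0.20 and Dhcr7 -0.026. Rescaling without mitochondrially encoded genes gave Nsdhl -0.038 and Ebp -0.077, array weights gave Msmo1 -0.039, Nsdhl -0.25, Ebp -0.43 and Dhcr7 -0.24, and leaving out PBS 1 and MDA-MB-231 EV 3 together gave Ebp -0.10 and Sc5d 0.28. Between the EV groups (MDA-MB-231 over MCF-10A), quantile normalization gave Lss -0.082, Cyp51 -0.072, Hsd17b7 -0.015 and Ebp -0.019, array weights gave Msmo1 0.44, Nsdhl 0.33 and Sc5d 0.25, and leaving out both libraries gave Lss -0.038, Msmo1 0.18, Nsdhl 0.24 and Sc5d 0.25. In MCF-10A EV against PBS, array weights, with the largest weight on PBS 3 (8.24), gave Lss -0.30, Cyp51 -0.44, Msmo1 -0.48, Nsdhl -0.58, Hsd17b7 -0.43, Sc5d -0.76 and Dhcr7 -0.22 and a median of the members of -0.44, and leaving out both libraries gave Hsd17b7 -0.010.

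Leaving out each library in turn gave ranges that include 0 for Msmo1 -0.12 to 0.48, Nsdhl -0.36 to 0.61, Hsd17b7 -0.22 to 0.73, Dhcr7 -0.067 to 0.66, Ebp -0.27 to 0.41 and Sc5d -0.70 to 0.44 in MDA-MB-231 EV against PBS. Between the EV groups they were Lss -0.19 to 0.60, Cyp51 -0.35 to 1.00, Hsd17b7 -0.36 to 0.59, Ebp -0.12 to 0.28, Msmo1 -0.42 to 0.35, Nsdhl -0.73 to 0.24 and Sc5d -0.88 to 0.25, and in MCF-10A EV against PBS Msmo1 -0.15 to 0.57, Hsd17b7 -0.062 to 0.39, Ebp -0.38 to 0.30, Sc5d -0.13 to 0.66 and Lss -0.043 to 0.55. The members' median ran from -0.07 to 0.59, -0.36 to 0.28 and 0.05 to 0.64 in these comparisons.

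Calls over all features moved more. Leave-outs gave 0 to 24 calls in MDA-MB-231 EV against PBS (24 without PBS 1, 5 without MDA-MB-231 EV 3), 13 to 31 between the EV groups (13 without MCF-10A EV 3, 15 without MCF-10A EV 2, 17 without MDA-MB-231 EV 2) and 14 to 59 in MCF-10A EV against PBS (59 without MDA-MB-231 EV 3, 54 without PBS 1, 14 without MCF-10A EV 3, 15 without PBS 3). Without both PBS 1 and MDA-MB-231 EV 3 there were 28 in MDA-MB-231 EV against PBS and 85 in MCF-10A EV against PBS. Between the EV groups the count was 11 with no filter, 46 with array weights, 17 with those 2 groups alone, 15 with a replicate block over 9 libraries and 12 with the replicate block in the 6 libraries alone. In MCF-10A EV against PBS it was 40 with a pseudocount of 0.1, 12 with no filter, 548 with array weights and 66 with those 2 groups alone. The replicate block moved no other count by over 1.5 times (20 calls in MCF-10A EV against PBS). Deviations of same-numbered libraries correlated at -0.28, 0.50 and -0.39 between MDA-MB-231 EV and PBS and at -0.21, -0.09 and -0.16 between MCF-10A EV and PBS. The 0.50, for the libraries numbered 2, was above each value between the EV groups, and whether equal numbers mark a pairing was not tested. TPM keeps no depth, so how far counting error limits the low values is unknown.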

Other observations

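Of the members 3 overlap another gene in GENCODE M21 (GRCm38), which is not the build named for the table, and whether the authors' counting used strand is not given, so reads in the shared part could be split. Cyp51 overlaps Akap9, a scaffold protein gene on the opposite strand, by 166 bases. Akap9 was at 9.12, 5.90 and 83.2 TPM in MDA-MB-231 EV 1 to 3, at 5.04, 2.45 and 5.70 TPM in MCF-10A EV 1 to 3 and at 44.8, 7.53 and 12.6 TPM in PBS 1 to 3. Its 2 highest libraries, MDA-MB-231 EV 3 and PBS 1, were those with the lowest Cyp51, a pattern noticed after the values were seen. Tm7sf2 overlaps Vps51, a vesicle tethering gene on the same strand, by 532 bases, and Vps51 was between 12.0 and 26.1 TPM in all libraries. Its 2 highest libraries were also MDA-MB-231 EV 3 (25.9 TPM) and PBS 1 (26.1 TPM). Those were the libraries with the lowest Tm7sf2, at 65.5 and 33.9 TPM. This too was noticed after the values were seen, and its cause was not tested. The RNA 4930483K19Rik on the opposite strand of Lss was at most at 0.22 TPM. For the other 6 members that annotation lists no overlapping gene.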
